A study of Mus musculus with 9 samples.

Results

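Imprinted genes are read mainly from the copy inherited from 1 parent, and many of them control growth before and after birth. The genes described here are 10 such growth-control genes, taken from a table of 56748 genes by symbol: Meg3, Rian, Mirg, Dlk1, H19, Igf2, Peg3, Plagl1, Grb10 and Mest. They were selected on their CPM in these 9 libraries, compared by genotype, so their differences between genotypes are descriptions. Calls from the fit over all genes are counted for them only beside the share or number of all genes called, and support nothing. RNA was measured in endothelial cells sorted from the lungs of C57BL/6 mice aged 6 weeks, as live cells that carried the endothelial surface protein CD31 and lacked the leukocyte protein CD45. There were 3 libraries of each of 3 genotypes, named WT, DNMAML and Notch1f/f in the labels. DNMAML is a truncated, dominant-negative form of the coactivator Mastermind-like that blocks transcription downstream of all Notch receptors, and Notch1f/f denotes Notch1 alleles flanked by recombination sites. The driver that switched on DNMAML or removed Notch1, the cells in which it acts, any treatment shared by the groups and whether each library came from a separate mouse are not stated in the labels used here. Any p-value therefore measures only the spread between these libraries.

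Levels are in CPM, counts scaled for the size of each library. The WT libraries gave 766, 909 and 811 CPM of Notch1, the DNMAML libraries gave 679, 872 and 777 CPM and the Notch1f/f libraries gave 70.8, 29.5 and 176 CPM. Notch1 was thus low in all 3 libraries labelled for its loss (log2 difference from WT -3.17, SE 0.59, edgeR's quasi-likelihood test with Benjamini-Hochberg adjusted p = 0.0634, with DESeq2 and limma-voom below the threshold). Maml1, the mouse gene related to the DNMAML transgene, had means of 75 CPM in WT and 78.5 CPM in DNMAML, and its count does not measure the transgene. The 12 endothelial markers had counts in all 9 libraries and summed to between 17660 and 23290 CPM. Markers of other cells were also present: 14 mural cell markers summed to between 172 and 949 CPM, 14 fibroblast markers to between 382 and 2826 CPM and 14 epithelial markers to between 185 and 3611 CPM. The 14 leukocyte markers summed to between 115 and 828 CPM, 8 platelet and red cell markers to between 108 and 957 CPM and 6 mesothelial markers to between 11.6 and 51.5 CPM. No marker of these lists was at 0 in all 9 libraries. Fos was low in WT replicate 2, DNMAML replicate 2 and Notch1f/f replicate 1 (319 to 495 CPM) and high in the other 6 libraries (1230 to 2006 CPM). Transcripts of Y-linked genes were found in WT replicate 2, DNMAML replicates 1 and 3 and Notch1f/f replicate 1. Both splits cross the genotypes. In WT and in Notch1f/f the low-Fos library was also the only library with Y-linked transcripts, so between these genotypes the splits coincide.

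In an imprinted domain a stretch of DNA methylated in the egg or the sperm decides which parental copy of the neighbouring genes is read. On mouse chromosome 12 the maternal copy gives the noncoding RNAs Meg3, Rian and Mirg, which carry snoRNAs and microRNAs, while the paternal copy gives Dlk1, a membrane protein related to the Notch ligands. On chromosome 7 the maternal copy gives the noncoding RNA H19 and the paternal copy gives Igf2, the growth factor that signals through the IGF1 receptor. Peg3, Plagl1 and Mest are paternally expressed, whereas Grb10 is expressed from the maternal copy in most tissues. Several of these genes are abundant in fetal tissues and fall after birth. The counts do not separate the parental copies, so imprinting itself was not measured.

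Several of these genes are also hosts of small RNAs, which are cut from their transcripts. RefSeq (GRCm38.p6) lists 34 mature microRNAs inside 6 of the 10 genes: 19 in Mirg, 6 in Rian, 3 in Meg3 and 2 each in H19, Igf2 and Mest. They hold 33 distinct seeds, bases 2 to 8 of the mature RNA, by which a microRNA recognises its targets. The only shared seed is GGUUGCC, in miR-453 and miR-496a-5p of Mirg. Both arms of the hairpins in H19 and Mest, hosts that lay above WT in every Notch1f/f library, and 1 arm from each chromosome 12 transcript are printed with the seed in capitals.
miR-675-5p: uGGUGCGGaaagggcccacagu (H19)
miR-675-3p: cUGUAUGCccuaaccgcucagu (H19)
miR-335-5p: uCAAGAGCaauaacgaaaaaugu (Mest)
miR-335-3p: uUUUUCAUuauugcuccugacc (Mest)
miR-770-5p: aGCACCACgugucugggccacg (Meg3)
miR-370-3p: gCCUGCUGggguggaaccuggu (Rian)
miR-410-3p: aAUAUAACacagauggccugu (Mirg)
None of the 7 share a seed. Mature microRNAs were not measured: of 22 microRNA rows of the table that lie inside the 10 genes, 3 had any count, 11 counts in all. These rows include Mir382, Mir134, Mir668 and Mir485, inside Mirg by the positions of the table. Their mature microRNAs are not among the 34 and their seeds were not counted. The values that follow are those of the host transcripts.

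Notch signals act on DNA through RBPJ, whose core site reads TGGGAA on one strand, which makes it TTCCCA on the opposite strand. In RefSeq windows of 300 bases (250 before to 50 after a transcription start, GRCm38.p6) this core was found in 25.6% of 32851 windows of the genome. The table of windows held 16 for 9 of the 10 genes and none for H19. The core occurred in 7 windows of 5 genes: Meg3, Rian, Mirg, Igf2 and Mest. The palindrome GGGGCCCC, the site described for the zinc finger protein PLAGL1, was found in 1.08% of windows and in 1 window here, that of Peg3. The 2 Mest windows with a core start 3 bases apart and hold the same match, and the third Mest window holds none. The windows of Meg3 and Rian, whose levels were low together, 1 Mest window with the core and the Peg3 window are printed 5′ to 3′ on the strand of the gene, with both motifs in capitals.
Meg3, first start, chr12:109540746-109541045: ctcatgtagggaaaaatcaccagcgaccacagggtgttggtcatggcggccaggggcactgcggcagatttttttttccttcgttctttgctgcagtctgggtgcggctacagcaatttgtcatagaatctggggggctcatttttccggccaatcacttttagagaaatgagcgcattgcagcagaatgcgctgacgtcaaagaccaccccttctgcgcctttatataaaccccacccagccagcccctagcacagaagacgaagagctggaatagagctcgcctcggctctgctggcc
Meg3, second start, chr12:109545148-109545447: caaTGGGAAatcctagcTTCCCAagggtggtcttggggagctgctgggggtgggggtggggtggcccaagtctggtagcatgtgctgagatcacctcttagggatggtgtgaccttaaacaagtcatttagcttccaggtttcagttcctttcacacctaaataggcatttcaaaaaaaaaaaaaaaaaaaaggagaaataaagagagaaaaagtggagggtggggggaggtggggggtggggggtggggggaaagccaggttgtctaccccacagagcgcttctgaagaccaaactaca
Rian, chr12:109603695-109603994: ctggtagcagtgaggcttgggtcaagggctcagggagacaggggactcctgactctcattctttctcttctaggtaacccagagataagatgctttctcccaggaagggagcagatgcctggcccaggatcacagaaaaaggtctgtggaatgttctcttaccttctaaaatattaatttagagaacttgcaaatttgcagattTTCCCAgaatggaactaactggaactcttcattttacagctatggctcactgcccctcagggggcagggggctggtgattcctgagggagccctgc
Mest, chr6:30737800-30738099: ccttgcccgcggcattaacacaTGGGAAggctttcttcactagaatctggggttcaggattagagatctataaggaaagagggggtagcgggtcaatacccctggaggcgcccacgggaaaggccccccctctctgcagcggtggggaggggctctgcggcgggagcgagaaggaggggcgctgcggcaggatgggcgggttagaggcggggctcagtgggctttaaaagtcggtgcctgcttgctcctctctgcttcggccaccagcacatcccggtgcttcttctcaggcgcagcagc
Peg3, minus strand, chr7:6730370-6730669: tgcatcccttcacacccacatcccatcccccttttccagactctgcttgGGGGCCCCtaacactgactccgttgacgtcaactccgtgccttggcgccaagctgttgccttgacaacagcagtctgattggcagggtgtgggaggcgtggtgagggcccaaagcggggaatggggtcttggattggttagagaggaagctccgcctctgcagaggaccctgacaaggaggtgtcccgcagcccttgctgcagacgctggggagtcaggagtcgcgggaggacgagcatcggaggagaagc
The first Meg3 window held 13 CpG pairs and no core, and the second held 1 CpG pair and 2 cores. The Rian window held no CpG pair, against a median of 7 per window over the genome. A match describes the letters only; binding was not measured here.

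Levels differed widely among the 10 genes. To compare genes, counts were divided by exon length and scaled to a fixed sum per library (TPM). Grb10 had the highest mean over the 9 libraries, 55.3 TPM (range 38.5 to 89.4), and Mest followed at 51.7 TPM (22.2 to 108) with an overlapping range. Peg3 had 19.6 TPM (11.6 to 53.7), and its lowest library lay above the highest library of the next gene, H19. H19 at 3.24 TPM (0.365 to 6.96) and Plagl1 at 3.02 TPM (1.52 to 5.14) overlapped. The lowest Plagl1 library lay just above the highest Meg3 library (1.499 TPM). Meg3 (0.782 TPM), Rian (0.451 TPM), Igf2 (0.37 TPM) and Mirg (0.188 TPM) then followed with ranges that overlapped from each gene to the next. Dlk1 closed the order at 0.00791 TPM. Thus 3 protein-coding genes, Grb10, Mest and Peg3, were the abundant ones in these lung endothelial libraries.

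**Figure D1:**
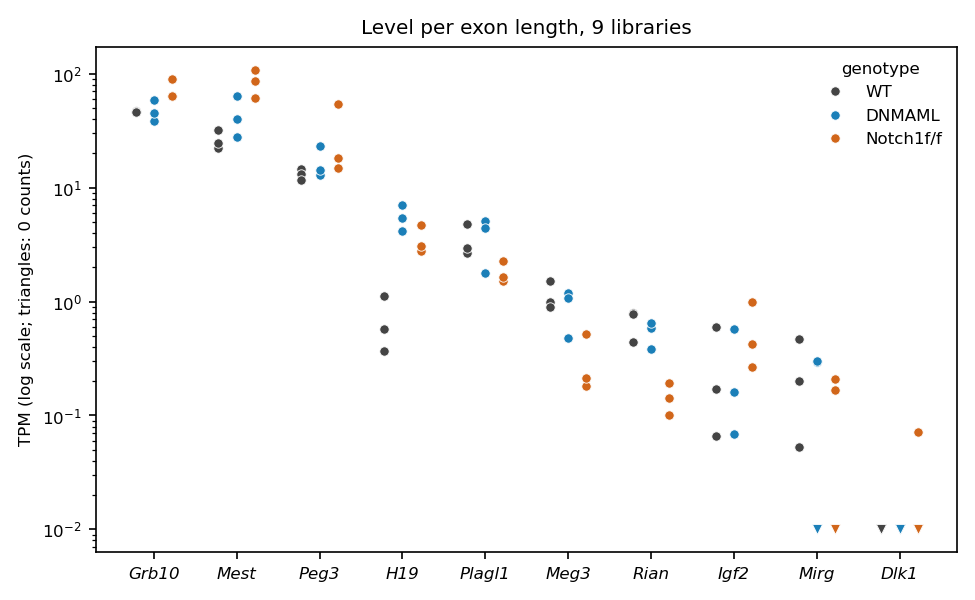
Level per exon length of each gene in each of the 9 libraries, in TPM on a log axis, coloured by genotype, with genes ordered by their mean; triangles mark libraries with 0 counts, placed at the foot of the axis. Grb10, Mest and Peg3 sit above all the other genes, and Dlk1 has a count in 1 library only.

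The noncoding RNAs of chromosome 12 were low in the Notch1f/f libraries. The first of them, Meg3, spans chr12:109506879-109538165 on GRCm39, plus strand. In the WT libraries Meg3 stood at 5.15, 7.44 and 4.59 CPM, in the DNMAML libraries at 5.98, 5.09 and 2.41 CPM and in the Notch1f/f libraries at 2.33, 0.886 and 1.13 CPM. Every Notch1f/f library lay below every WT and every DNMAML library, the nearest pair being Notch1f/f replicate 1 and DNMAML replicate 3, while WT and DNMAML overlapped. Mean levels of Meg3 were 5.72 ± 1.51 CPM for WT, 4.49 ± 1.86 CPM for DNMAML and 1.45 ± 0.772 CPM for Notch1f/f (SD, n = 3). The log2 difference of Meg3 was -1.98 (SE 0.52) for Notch1f/f against WT, -1.63 (SE 0.52) for Notch1f/f against DNMAML and -0.35 (SE 0.50) for DNMAML against WT.

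Rian (chr12:109570242-109628150, plus strand), which lies downstream of Meg3 and hosts clusters of snoRNAs, had the same arrangement. The WT libraries gave 3.80, 6.54 and 6.73 CPM of Rian, the DNMAML libraries gave 4.93, 3.10 and 5.48 CPM and the Notch1f/f libraries gave 1.43, 1.15 and 0.902 CPM. The 3 Notch1f/f libraries were again below all 6 others, with WT and DNMAML overlapping. The log2 difference of Rian was -2.28 (SE 0.46) for Notch1f/f against WT, from means of 5.69 ± 1.64 and 1.16 ± 0.265 CPM (SD, n = 3). Against DNMAML it was -1.95 (SE 0.45), and DNMAML differed from WT by -0.33 (SE 0.43).

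Mirg (chr12:109696198-109715894, plus strand), the most distal of the 3 noncoding RNAs, was near the limit of counting. The WT libraries held 2, 6 and 18 counts of Mirg, the DNMAML libraries held 14, 0 and 16 and the Notch1f/f libraries held 8, 0 and 6, and the 3 genotypes overlapped. A total of 3 counts, the limit that a count of 0 allows for counting error, corresponded to 0.11 to 0.192 CPM depending on the library. The log2 difference of Mirg for Notch1f/f against WT was -1.01 (SE 1.60), within the spread between libraries. Most counts below 200 were even numbers (76.6% to 89% per library), as were 77.5% of the 80 values above 0 of these genes. The recorded counting has no option for read pairs, so a fragment can enter as more than 1 count and a low count can stand for fewer molecules than it shows. Summed over Meg3, Rian and Mirg, the chromosome 12 noncoding RNAs reached 11.9 ± 2.67 CPM for WT, 9.38 ± 1.82 CPM for DNMAML and 2.84 ± 1.12 CPM for Notch1f/f (SD, n = 3).

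Dlk1 (chr12:109418749-109429262), the paternally expressed gene of the domain, had 0 counts in 8 libraries and 2 counts in Notch1f/f replicate 3, under the limit of 3 counts. It was the only one of the 10 genes that did not pass the filter on low counts. Rtl1, a paternally expressed gene derived from a retrotransposon, was also sparse: the WT libraries held 10, 6 and 6 counts, the DNMAML libraries held 10, 4 and 22 and the Notch1f/f libraries held 2, 0 and 0. Its exons lie opposite a maternal noncoding transcript. No strand option was recorded for the counting, so reads from the 2 strands cannot be told apart and these counts may belong to either parental copy. Between the start of Dlk1 and the end of Dio3 the table had 117 rows, of which 21 had any count, 7 had at least 10 counts and 4 were tested. Those 7 were Rian (716 counts over the 9 libraries), Meg3 (714), the pseudogene Gm3379 (342), Mirg (70), Rtl1 (60), B830012L14Rik (28) and Gm37899 (16). The small RNAs were nearly empty: 9 of 59 microRNA rows held 29 counts in all, and 1 of 18 snoRNA rows had a count.

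**Figure D2:**
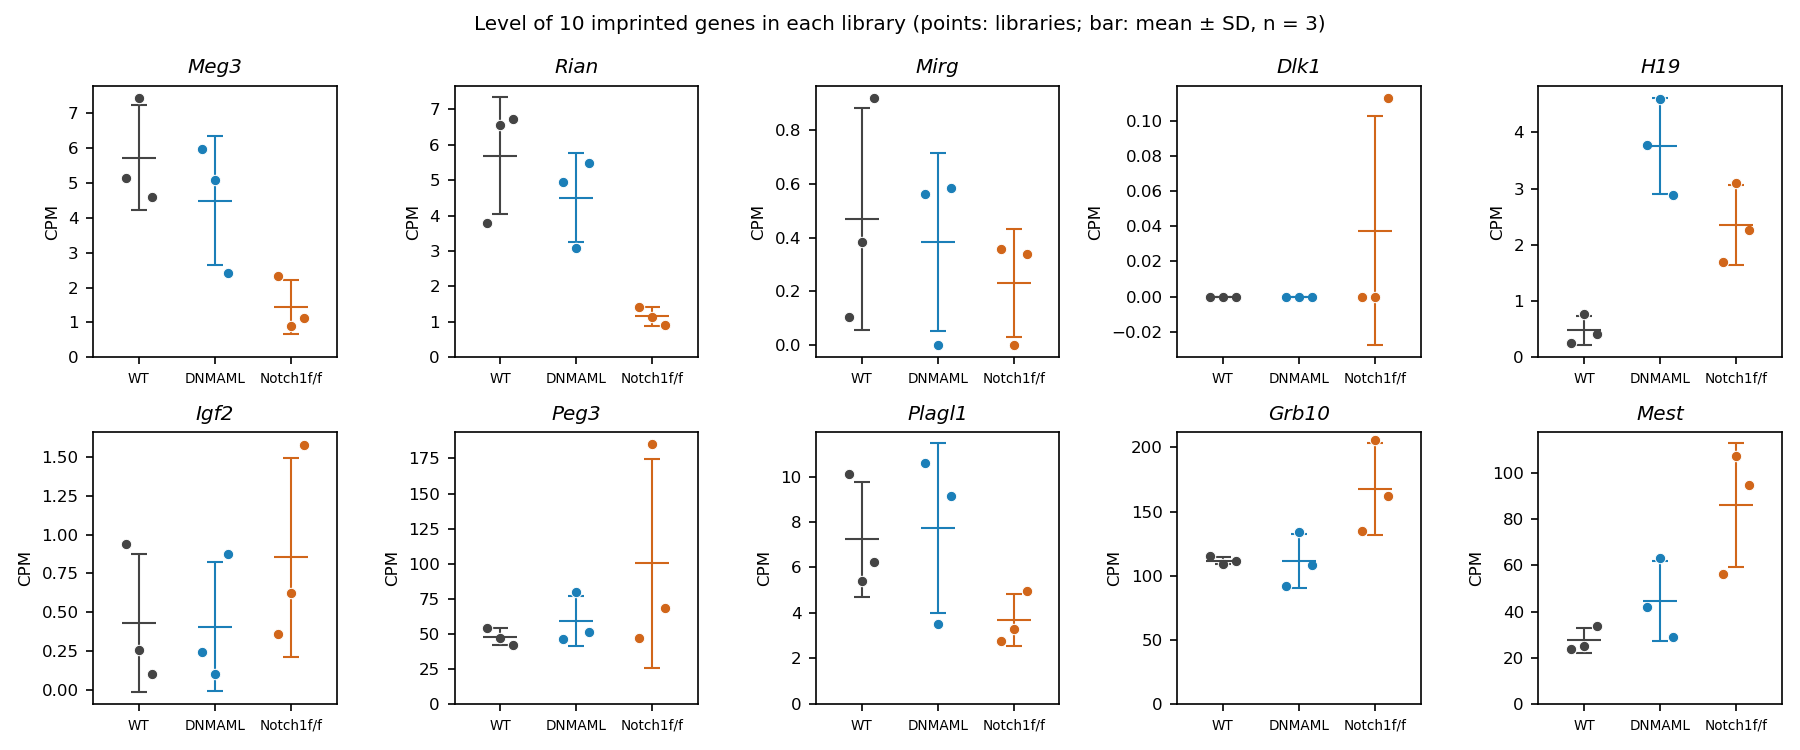
CPM of each of the 10 genes by genotype, on linear axes of their own; points are libraries in the order of replicates 1 to 3 and bars are mean ± SD (n = 3). Meg3 and Rian sit lowest in the 3 Notch1f/f libraries, H19 lowest in the 3 WT libraries, and a single Notch1f/f library carries the high Peg3 mean.

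H19 (chr7:142129262-142131886, minus strand), the maternal noncoding RNA that yields miR-675, was lowest in WT. Levels of H19 were 0.260, 0.769 and 0.408 CPM for WT, 3.77, 4.59 and 2.89 CPM for DNMAML and 1.70, 3.10 and 2.26 CPM for Notch1f/f libraries, from 5 to 12 counts per WT library and 38 to 94 counts in each of the others. Every DNMAML and every Notch1f/f library lay above every WT library, and DNMAML and Notch1f/f overlapped. The log2 difference of H19 was 2.97 (SE 0.61) for DNMAML against WT, from means of 3.75 ± 0.854 and 0.479 ± 0.262 CPM (SD, n = 3). It was 2.30 (SE 0.60) for Notch1f/f against WT and -0.67 (SE 0.55) for Notch1f/f against DNMAML.

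Igf2 (chr7:142204503-142220553, minus strand), the paternally expressed growth factor that shares an enhancer with H19, was low throughout. In the WT libraries Igf2 stood at 0.936, 0.256 and 0.102 CPM, in the DNMAML libraries at 0.241, 0.0999 and 0.877 CPM and in the Notch1f/f libraries at 0.358, 0.620 and 1.58 CPM, with all genotypes overlapping. Of the exon bases of Igf2, 64.5% also belong to exons of other rows of the table, among them Igf2os on the opposite strand. The recorded counting command has no option to assign a read that falls on several genes, so the count of Igf2 rests on the remaining bases. Counts of Igf2 were 18, 4 and 2 for WT, 6, 2 and 24 for DNMAML and 8, 14 and 28 for Notch1f/f libraries. Its log2 difference was -0.08 (SE 1.23) for DNMAML against WT and 0.96 (SE 1.23) for Notch1f/f against WT. H19 was lowest in WT, while the WT and DNMAML means of Igf2 were 0.431 and 0.406 CPM. Igf2 was too sparse to show whether the levels of H19 and Igf2 mirror each other across genotypes.

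The paternally expressed zinc finger genes Peg3 (chr7:6706891-6733430, minus strand) and Plagl1 (chr10:12936248-13007438, plus strand) had unlike patterns. Peg3 has been linked to p53 and TNF signalling. The WT libraries gave 54.3, 46.7 and 42.3 CPM of Peg3, the DNMAML libraries gave 46.5, 79.7 and 50.9 CPM and the Notch1f/f libraries gave 47.0, 186 and 68.6 CPM. Only Notch1f/f replicate 2 was far above the rest, and all genotypes overlapped. The log2 difference of Peg3 between Notch1f/f and WT was 1.07 (SE 0.49), and without Notch1f/f replicate 2 it was 0.28. Against DNMAML the values were 0.77 with that library and -0.03 without it.

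Plagl1 is known as a regulator of other imprinted genes. Levels of Plagl1 were 10.1, 5.38 and 6.22 CPM for WT, 10.6, 3.50 and 9.14 CPM for DNMAML and 2.78, 3.28 and 4.96 CPM for Notch1f/f libraries. The Notch1f/f libraries lay below all WT libraries, with the nearest pair at 4.96 and 5.38 CPM, and overlapped with DNMAML. Plagl1 differed on the log2 scale by -0.98 (SE 0.46) for Notch1f/f against WT, -1.08 (SE 0.46) for Notch1f/f against DNMAML and 0.10 (SE 0.45) for DNMAML against WT.

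Grb10 (chr11:11880508-11988683, minus strand) encodes an adaptor that binds the insulin and IGF1 receptors and dampens their signals. In the WT libraries Grb10 stood at 115, 109 and 111 CPM, in the DNMAML libraries at 92.2, 134 and 108 CPM and in the Notch1f/f libraries at 135, 206 and 162 CPM. All 3 Notch1f/f libraries were above the other 6, but Notch1f/f replicate 1 exceeded DNMAML replicate 2 by under 1 CPM. Grb10 differed on the log2 scale by 0.58 (SE 0.17) for Notch1f/f against WT, from means of 168 ± 35.9 and 112 ± 3.00 CPM (SD, n = 3). The difference was 0.59 (SE 0.17) against DNMAML and -0.003 (SE 0.17) for DNMAML against WT.

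Mest (chr6:30723546-30748464, plus strand), which also hosts miR-335, encodes a protein of the alpha/beta-hydrolase fold. The WT libraries gave 23.8, 25.3 and 33.9 CPM of Mest, the DNMAML libraries gave 41.8, 63.1 and 28.9 CPM and the Notch1f/f libraries gave 56.2, 108 and 95.0 CPM. The Notch1f/f libraries were all above WT, and DNMAML overlapped with both other genotypes. On the log2 scale Mest differed by 1.64 (SE 0.32) for Notch1f/f against WT, from means of 86.3 ± 26.8 and 27.6 ± 5.45 CPM (SD, n = 3). The difference was 0.69 (SE 0.31) for DNMAML against WT and 0.95 (SE 0.31) for Notch1f/f against DNMAML. Mest shares 23.1% of its exon bases with Copg2 on the opposite strand. Copg2, whose product belongs to the COPI coat, had means of 62.9 CPM in WT and 60.5 CPM in Notch1f/f, with overlapping libraries.

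**Figure D3:**
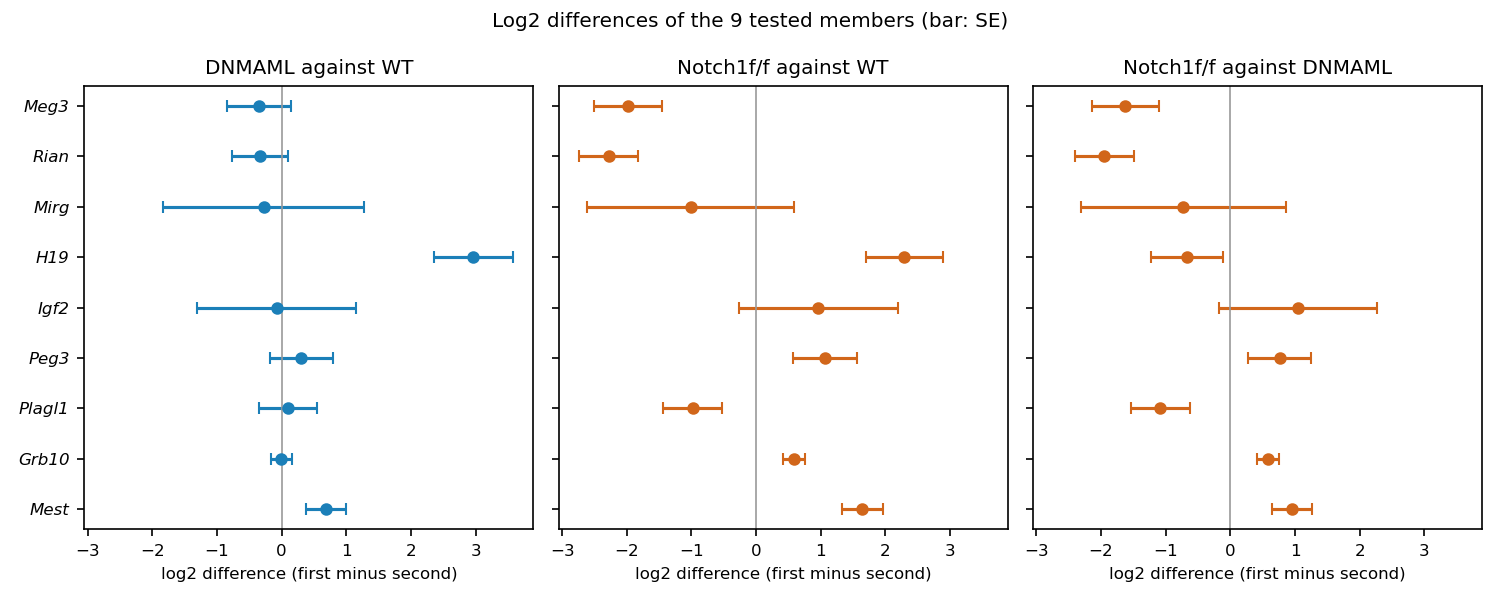
Log2 differences of the 9 tested genes in the 3 comparisons (first genotype minus second; bars are SE from the fit over all genes). H19 lies farthest from 0 in DNMAML against WT, whereas Meg3, Rian and Plagl1 lie below 0 and H19, Peg3, Grb10 and Mest above 0 by more than their SE in Notch1f/f against WT; the comparisons with WT share the same WT libraries.

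DNMAML against WT compares libraries labelled for the form that blocks transcription downstream of all Notch receptors with WT. The values given here do not show whether that block acted in these cells. H19 was the gene of the 10 that stood apart, higher in all DNMAML libraries, while the chromosome 12 RNAs, Igf2, Peg3, Plagl1, Grb10 and Mest overlapped between the genotypes. None of the 9 tested genes was called by edgeR at an adjusted p below 0.05, against 0.00513% of the 19486 genes tested (1 gene), and 1 had an unadjusted p below 0.05, against 5.97% of all genes tested. DESeq2 called 1 of them, H19, beside 213 genes over the whole table, and limma-voom called 0, beside 0. With the replicate number as a block, 1 (H19) was called over the 6 WT and DNMAML libraries and 0 over all 9. Over the whole table these fits called 310 and 4 genes. The share with no overlap between the 3 and 3 libraries was 1 of 9 here, against 14.4% of all tested genes (7.58% above WT and 6.84% below). The median log2 difference was -0.003 over the 9 genes and 0.009 over all genes tested. Since these contrasts were in view when the genes were chosen, nothing is read from these counts or from those of the other comparisons.

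Notch1f/f against WT compares libraries labelled for loss of 1 receptor, Notch1, with WT libraries. Meg3, Rian and Plagl1 were lower and H19, Grb10 and Mest higher in every Notch1f/f library than in every WT library, and Mirg, Igf2 and Peg3 overlapped. Rian was the only one of the 9 called by edgeR, against 0.836% of all genes tested (163 genes, of which 100 were higher, 0.513%, and 63 lower, 0.323%), and 5 of the 9 had an unadjusted p below 0.05, against 13.4% of all genes tested. The count of genes with no overlap was 3 above and 3 below WT, beside 8.5% and 9.33% of all tested genes (17.8% in either direction). The median log2 difference was 0.58 over the 9 genes and 0.02 over all genes tested. The call of Rian was lost when WT replicate 1, 2 or 3, DNMAML replicate 1 or 3, or Notch1f/f replicate 2 or 3 was left out, while its log2 difference stayed between -2.50 and -2.14. Over the 6 WT and Notch1f/f libraries alone edgeR did not call Rian (adjusted p = 0.0862) and called Mest (adjusted p = 0.0235), beside 173 genes over the whole table. DESeq2 called 5 of the 9 (Meg3, Rian, H19, Grb10 and Mest), beside 1067 genes over the whole table. Limma-voom called 0, beside 69. This comparison shares its WT libraries with DNMAML against WT.

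Notch1f/f against DNMAML sets the libraries labelled for loss of this receptor beside those labelled for the block of all of them. Meg3 and Rian were lower and Grb10 higher in every Notch1f/f library than in every DNMAML library, and the other 6 tested genes overlapped. None of the 9 was called by edgeR, against 0.0205% of all genes tested (4 genes, 0.0103% higher and 0.0103% lower), and 5 had an unadjusted p below 0.05, against 6.37% of all genes tested. DESeq2 called 1, Rian, beside 172 genes over the whole table, and limma-voom called 0, beside 4. The groups did not overlap for 1 gene above and 2 below, beside 4.4% and 5.32% of all tested genes (9.72% in either direction). The median log2 difference was -0.67 over the 9 genes and 0.004 over all genes tested.

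Other markers moved with these differences in the same libraries, and their part in them was not tested. The 14 mural cell markers (pericytes and smooth muscle) summed to 629 to 949 CPM in WT, 388 to 777 CPM in DNMAML and 172 to 317 CPM in Notch1f/f, so they were lowest in the libraries where Meg3 and Rian were lowest. Of these 14 markers, 5 were called lower by edgeR in Notch1f/f against WT, 9 were called by DESeq2 and 3 by limma-voom. Over all genes tested edgeR called 0.323% lower, and DESeq2 and limma-voom called 1067 and 69 genes in either direction. The median log2 difference of the 14 was -1.13, with 10 below 0 and 4 above. Rgs5, a pericyte marker picked out after its values were seen, was above WT in every Notch1f/f library (means 21.7 and 14.3 CPM), and edgeR did not call it. Fibroblast markers ran from 754 to 2782 CPM in WT, from 711 to 2826 CPM in DNMAML and from 382 to 978 CPM in Notch1f/f, with 0 of 14 called by edgeR in Notch1f/f against WT (4 at an unadjusted p below 0.05), 2 by DESeq2 and 0 by limma-voom. Epithelial markers ran from 459 to 3611 CPM in WT, from 263 to 1856 CPM in DNMAML and from 185 to 1293 CPM in Notch1f/f. All 14 had a log2 difference below 0 in Notch1f/f against WT (median -0.89) and against DNMAML (median -0.75). For each of these comparisons edgeR called 0 of them, with 1 at an unadjusted p below 0.05, DESeq2 called 1 and limma-voom 0. Of all genes tested, 13.4% had an unadjusted p below 0.05 in Notch1f/f against WT and 6.37% in Notch1f/f against DNMAML. In CPM, within WT the mural sum was lowest in replicate 3, where Meg3 was lowest and Rian and Mirg highest. Within DNMAML it was lowest in replicate 2, where Rian and Mirg were lowest and Meg3 lay between the others. Within Notch1f/f it was lowest in replicate 1, where Meg3, Rian and Mirg were highest. In bulk samples fewer cells of a type and less RNA per cell cannot be told apart.

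The 12 cell cycle genes summed to 45.5 to 48.3 CPM in WT, 270 to 355 CPM in DNMAML and 89.6 to 428 CPM in Notch1f/f. They were lowest in WT, as was H19. Among the DNMAML libraries the cell cycle sum, H19 and Mest were each highest in replicate 2 and lowest in replicate 3. Among the Notch1f/f libraries all of them were lowest in replicate 1, but the cell cycle sum was highest in replicate 3 and H19 and Mest in replicate 2. Among the WT libraries the cell cycle sum was lowest in replicate 3, where Mest was highest. There H19 was lowest in replicate 1, and H19 and the cell cycle sum were highest in replicate 2. All 12 cell cycle genes were above WT in every DNMAML library, of which edgeR called 1, DESeq2 10 and limma-voom 0. In Notch1f/f against WT edgeR called 6, DESeq2 12 and limma-voom 0. Of all genes tested, 7.58% lay above WT in every DNMAML library. Over all genes tested edgeR called 0.00513% higher in DNMAML and 0.513% higher in Notch1f/f against WT, and DESeq2 called 213 and 1067 genes in either direction. The part of the cell cycle genes in the levels of H19 and Mest was not tested.

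**Figure D4:**
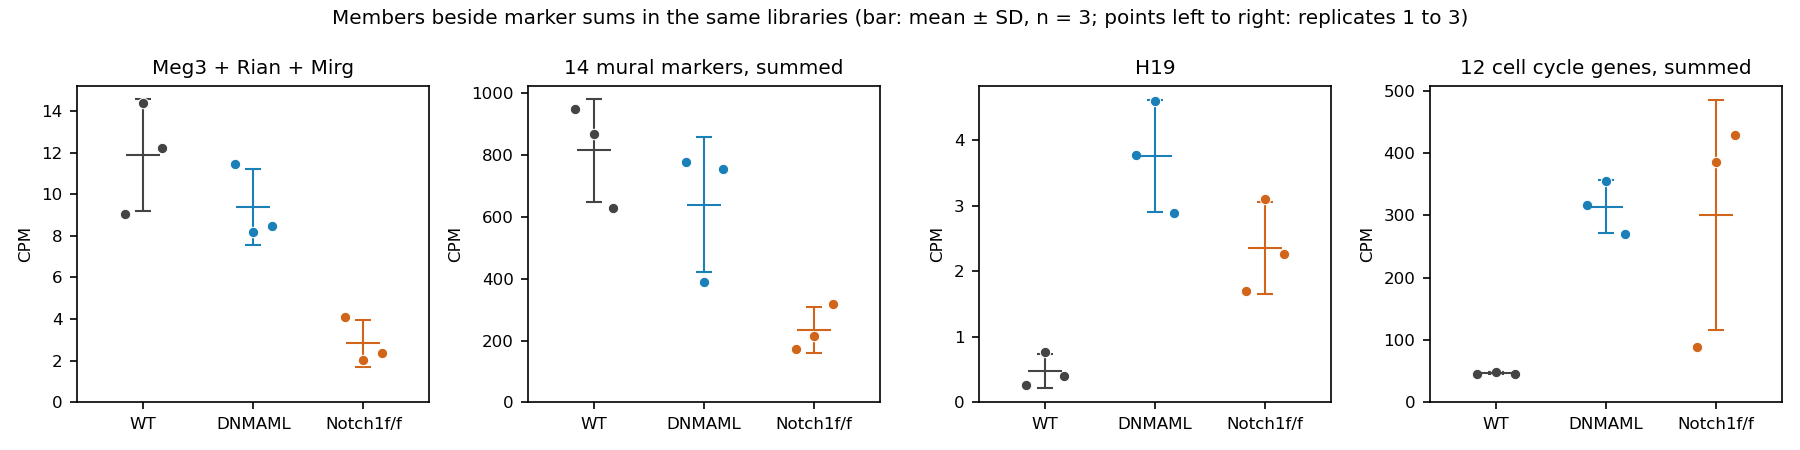
Sum of Meg3, Rian and Mirg beside the summed mural markers, and H19 beside the summed cell cycle genes, all in CPM on axes from 0; points are replicates 1 to 3 from left to right and bars are mean ± SD (n = 3). The chromosome 12 RNAs and the mural markers are both lowest in Notch1f/f, and H19 and the cell cycle genes are both lowest in WT.

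Within each Fos class Rian, H19 and Mest kept the direction they had over all libraries in the comparisons with WT given here. For Notch1f/f against WT the Fos classes are also the classes by Y-linked transcripts, so Fos and sex cannot be told apart there. Among the libraries with low Fos, 1 per genotype, Rian had 6.54 CPM in WT and 1.43 CPM in Notch1f/f, and among those with high Fos, 2 per genotype, means were 5.26 and 1.03 CPM. With low Fos H19 was at 0.769 CPM in WT and 4.59 CPM in DNMAML, and 0.334 and 3.33 CPM with high Fos. Mest had 25.3 CPM in WT and 56.2 CPM in Notch1f/f with low Fos, and 28.8 and 101 CPM with high Fos. Between Notch1f/f and DNMAML, Mest was 56.2 against 63.1 CPM with low Fos and 101 against 35.4 CPM with high Fos, so its direction differed between the classes; this difference was not tested. Grb10 in these classes was 135 against 134 CPM and 184 against 100.3 CPM.

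The remaining imprinted genes gave no call by edgeR. A list of 63 held 62 found in the table, of which 41 were tested, and edgeR called 0 in each of the 3 comparisons. Unadjusted p-values below 0.05 numbered 4 for DNMAML against WT, 10 for Notch1f/f against WT and 3 for Notch1f/f against DNMAML. Over all genes tested edgeR called 0.00513%, 0.836% and 0.0205% in that order, and 5.97%, 13.4% and 6.37% had an unadjusted p below 0.05. The median log2 differences of the 41 genes were -0.07, -0.13 and -0.006, beside 0.009, 0.02 and 0.004 over all genes tested. DESeq2 called 3 of the 41 in Notch1f/f against WT, namely Igf2r, Zrsr1 and Ampd3, beside 1067 genes over the whole table. It called 0 in the other comparisons, and limma-voom called 0 in all 3. In the chromosome regions that hold the 10 genes, the most abundant others on the list were Kcnq1ot1, Nap1l4 and Cd81. Kcnq1ot1 is a paternal noncoding RNA antisense to Kcnq1, Nap1l4 is a histone chaperone and Cd81 is a tetraspanin. Levels of Cd81 were 166, 89.3 and 96.8 CPM for WT, 206, 99.1 and 135 CPM for DNMAML and 154, 265 and 165 CPM for Notch1f/f libraries, with overlap. In other regions the most abundant were Igf2r, H13 and Peg13. Peg13 is a noncoding RNA. In the WT libraries Peg13 stood at 200, 191 and 175 CPM, in the DNMAML libraries at 161, 130 and 155 CPM and in the Notch1f/f libraries at 161, 131 and 149 CPM, lower in every library of both genotypes than in WT and not called.

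The insulin and IGF pathway, which Igf2 activates and Grb10 dampens, was read from 18 genes, of which 16 were tested. Grb14, a second adaptor of the Grb10 family that inhibits the insulin receptor, was the only one called, and it fell in Notch1f/f. The WT libraries gave 59.3, 63.1 and 60.9 CPM of Grb14, the DNMAML libraries gave 44.1, 33.0 and 48.7 CPM and the Notch1f/f libraries gave 23.1, 17.6 and 29.7 CPM. All Notch1f/f libraries lay below all DNMAML libraries, and those below all WT libraries, the reverse of the order of Grb10 between WT and Notch1f/f. The log2 difference of Grb14 for Notch1f/f against WT was -1.38 (SE 0.20, edgeR adjusted p = 0.0157). Without WT replicate 1 or WT replicate 2 the edgeR adjusted p of Grb14 was 0.0661 or 0.0625, and over all alternatives it ran from 3.74e-10 to 0.0661. Igf2r encodes the receptor that clears IGF2. In the WT libraries Igf2r stood at 179, 168 and 181 CPM, in the DNMAML libraries at 207, 254 and 210 CPM and in the Notch1f/f libraries at 245, 315 and 237 CPM. Its libraries in both genotypes lay above WT, and it was not called (log2 difference 0.59, SE 0.14, edgeR adjusted p = 0.0692 for Notch1f/f against WT). That adjusted p was below the threshold with DESeq2, without the filter on low counts, with Fos class as a term and without Notch1f/f replicate 1. For Igfbp7, an abundant secreted IGF-binding protein of vessels, the WT libraries gave 386, 402 and 376 CPM and the Notch1f/f libraries 432, 876 and 561 CPM (edgeR adjusted p = 0.148). The median log2 difference of the 16 genes was -0.37 for Notch1f/f against WT, beside 0.02 over all genes tested. There edgeR called 1 of the 16 and 6 had an unadjusted p below 0.05, against 0.836% and 13.4% of all genes tested. DESeq2 called 4 of the 16 and limma-voom 1, beside 1067 and 69 genes over the whole table. In DNMAML against WT and Notch1f/f against DNMAML edgeR called 0, with 3 at an unadjusted p below 0.05 in each, while DESeq2 called 0 and 2 and limma-voom 0 and 0. Over all genes tested 5.97% and 6.37% had an unadjusted p below 0.05 in these 2 comparisons, and DESeq2 called 213 and 172 genes.

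Genes that keep imprints, such as the maintenance methyltransferase Dnmt1, the zinc finger protein Zfp57 and its partner Trim28, gave no call by edgeR among 15 tested of 18. Levels of Dnmt1 were 139, 143 and 146 CPM for WT, 141, 176 and 144 CPM for DNMAML and 142, 150 and 144 CPM for Notch1f/f libraries. Its log2 difference for Notch1f/f against WT was 0.02 (SE 0.12). Tet3 and Arid4a, the other two of the 3 most abundant genes of the list, differed by 0.22 (SE 0.12) and -0.18 (SE 0.12) in that comparison. Of the 15, unadjusted p-values below 0.05 numbered 2, 3 and 1 in DNMAML against WT, Notch1f/f against WT and Notch1f/f against DNMAML, where DESeq2 called 1, 1 and 0 and limma-voom 0 each time. Of 10 genes of microRNA processing, edgeR called 0 in each comparison, with 0, 1 and 2 at an unadjusted p below 0.05 in that order, while DESeq2 called 0, 1 and 0 and limma-voom 0. Over all genes tested 5.97%, 13.4% and 6.37% had an unadjusted p below 0.05 in the same order, and DESeq2 called 213, 1067 and 172 genes. Dicer1 cuts the hairpins of the printed microRNAs into mature ones. The WT libraries gave 137, 174 and 128 CPM of Dicer1, the DNMAML libraries gave 134, 177 and 143 CPM and the Notch1f/f libraries gave 175, 137 and 119 CPM, with overlap.

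Genes near the 10 did not pass the test either. Within 500 kb of them 55 other genes were tested, and edgeR called 0 in each comparison, with 3, 7 and 4 at an unadjusted p below 0.05 in DNMAML against WT, Notch1f/f against WT and Notch1f/f against DNMAML. DESeq2 called 1, 3 and 0 of them and limma-voom 0. Over all genes tested 5.97%, 13.4% and 6.37% had an unadjusted p below 0.05 in the same order, and DESeq2 called 213, 1067 and 172 genes. The median log2 difference of the 55 was -0.05 for DNMAML against WT and -0.06 for Notch1f/f against WT. Over all genes tested these medians were 0.009 and 0.02.

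Genes elsewhere in the genome were ranked by how closely their profile followed that of each gene, as the root-mean-square distance between centred log2 CPM profiles over the 9 libraries, where a smaller distance means a closer profile. A distance is smaller for a gene that itself varies less, so distances are not ranked between the 10 genes: the root-mean-square spread of the own profile was 0.332 for Grb10, 0.671 for Plagl1 and 0.759 for Mest. The nearest to Grb10 were Gdpd5 (0.076) and Rai14 (0.126). The nearest to Plagl1 were Twsg1 (0.147) and Nexn (0.175), and the nearest to Mest were Col4a1 (0.18) and Lcp1 (0.221). The nearest to Peg3 were Gm41361 (0.245) and Spata13 (0.251). Rian had Glt8d2 (0.31) and Tmem38b (0.398), and Meg3 had Mlph (0.407) and Gm11613 (0.417). H19 had Pask (0.378) and Ccna2 (0.455), the latter a cyclin. Igf2 had Wnt5b (0.506) and Frat2 (0.571), and Mirg had 9130230N09Rik (0.429) and Gm2415 (0.497), both members being sparse. These profiles rest on 9 libraries that share genotype, and the distances are descriptions.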

How the data were processed

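The authors deposited raw read counts for 9 libraries, as whole numbers, with the exon length of each gene. Counting used featureCounts 2.0.1 with Ensembl annotation release 107 of GRCm39, per the file headers, whereas the submitters' processing notes name STAR 2.7 and mm10. The recorded command sets no option for strand, read pairs or reads on several genes, per the file headers, although the libraries were made with a strand-specific kit, per the labels' protocols. No source used here says whether molecular identifiers were used, so floors cover counting error only. Totals ran from 15522100 to 27842496 counts per library.

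Gene positions are those of the deposited table. Symbols came from a GRCm38 annotation, in which 52073 of 56748 identifiers were found. Promoter windows and microRNAs are RefSeq's, on GRCm38.p6, and positions were not converted between builds. CPM are counts over the TMM-scaled library size. TPM were computed from counts and exon lengths.

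All 9 libraries were fitted with edgeR 4.0.16 (R 4.3.3) by a robust quasi-likelihood model with genotype as the term, over the 19486 genes that pass filterByExpr. Genes were called at a Benjamini-Hochberg adjusted p below 0.05. SE is the absolute log2 difference divided by the square root of the F statistic. The scripts were tested on simulated data. DESeq2 1.42.0, limma-voom (limma 3.58.1), other scalings, no filter, a replicate block, fits to the libraries of a single comparison and leaving out each library were tried. Fos class and sex as terms were added after seeing the data.

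The members and lists were chosen with earlier results of these data known. Named genes were the 10 genes. From each other list they were the called genes and the 3 with the highest mean CPM, from the chromosome 12 domain the rows with at least 10 counts, and for each tested gene the 2 with the closest profile on other chromosomes. Other genes named were chosen after their values were seen. Same-numbered libraries of WT and DNMAML shifted together from their group means (correlations 0.524, 0.369 and 0.179 over 5000 genes). Unlike numbers of these genotypes gave -0.443 to 0.0287. The highest correlation between any libraries of different genotypes, 0.584, joined WT replicate 2 and Notch1f/f replicate 1. Both had low Fos and both had Y-linked transcripts. What a number marks is not in the labels, so a pairing is not established. The main fit, and every SE given, has no block for it, and the block was tried as an alternative.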

Additional observations from a re-analysis of the deposited data

How the results depend on the processing

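The log2 differences of Meg3, Rian, H19, Grb10 and Mest for Notch1f/f against WT kept their sign in all 19 alternatives, as did that of H19 for DNMAML against WT. Their ranges were -2.51 to -1.71 for Meg3, -2.50 to -2.14 for Rian, 2.01 to 2.79 for H19, 0.42 to 0.71 for Grb10, 1.46 to 1.87 for Mest and, against WT in DNMAML, 2.67 to 3.47 for H19. For DNMAML against WT Mirg, which rests on few counts, turned sign to 0.67 without WT replicate 3 and 0.29 without DNMAML replicate 2. Igf2, also sparse, turned sign with limma-voom, with sex as a term and without WT replicate 1 (1.18) or DNMAML replicate 1 or 2. Calls moved far more, and the cause was not tested. For DNMAML against WT, where edgeR called 1 gene, DESeq2 called 213, limma-voom 0, no filter 460, the 6 libraries alone 78, Fos class as a term 39 and sex as a term 33, and leaving out 1 library gave 0 to 94 (94 without Notch1f/f replicate 1). The H19 difference was 3.47 without WT replicate 2. Of the 10 genes, DESeq2 called 1 (H19) and no filter 2 (H19 and Mest) against 0. For Notch1f/f against WT, 163 genes became 1067 with DESeq2, 69 with limma-voom, 1415 with no filter and 557 with Fos class, and 13 to 530 without 1 library (13 without WT replicate 1, 530 without Notch1f/f replicate 1). They became 225 on total counts, 230 with sex as a term and 322 without DNMAML replicate 2. The count of 1 among the 10 genes became 5 with DESeq2, 0 with limma-voom, 2 on total counts, 5 with no filter, 2 with Fos class and 2 with sex, and 0 to 4 without 1 library (4 without Notch1f/f replicate 1, 2 without DNMAML replicate 2). For the other imprinted genes 0 became 3 with DESeq2, 6 with no filter and 2 with Fos class, and 0 to 3 without 1 library. For Notch1f/f against DNMAML, 4 genes became 172 with DESeq2, 696 with no filter, 1 in the 6 libraries alone and 10 with Fos class, and 2 to 31 without 1 library (31 without DNMAML replicate 2). Among the 10 genes 0 became 1 with DESeq2 and 4 with no filter, and among the other imprinted genes no filter called 1.

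With the replicate block, DNMAML against WT gave 4 genes over 9 libraries and 310 over 6, with 1 of the 10 genes (H19) called over 6. Notch1f/f against WT gave 279 and 92 genes with the block, and Mest in place of Rian among the 10. Notch1f/f against DNMAML gave 8 over 6 libraries. Same-numbered libraries of Notch1f/f gave correlations of -0.328, -0.241 and 0.264 with WT and -0.143, 0.149 and 0.323 with DNMAML. Their signs differed between numbers, but both values for replicate 3 exceeded the 0.179 between WT replicate 3 and DNMAML replicate 3. Depth limits Mirg, Igf2 and Dlk1.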

Other observations

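The imprinted noncoding RNAs Kcnq1ot1 and Airn, outside the 10 genes, varied among the libraries of each genotype. Kcnq1ot1 stood at 74.1, 145 and 79.0 CPM in the WT libraries, at 92.9, 188 and 84.5 CPM in the DNMAML libraries and at 214, 135 and 59.6 CPM in the Notch1f/f libraries. In each genotype its highest library was the one with low Fos: WT replicate 2, DNMAML replicate 2 and Notch1f/f replicate 1. Airn, the noncoding RNA antisense to Igf2r, stood at 15.9, 20.6 and 11.0 CPM in the WT libraries, at 17.8, 40.3 and 18.6 CPM in the DNMAML libraries and at 43.1, 37.3 and 17.7 CPM in the Notch1f/f libraries, again highest in the low-Fos library of each genotype. Airn was singled out after its values were seen, and counting without strand cannot tell it or Kcnq1ot1 from their antisense partners.

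Uhrf1, which brings the methyltransferase Dnmt1 to newly copied DNA, stood at 2.91, 1.67 and 1.02 CPM in the WT libraries, at 8.62, 14.4 and 10.9 CPM in the DNMAML libraries and at 3.67, 27.6 and 16.6 CPM in the Notch1f/f libraries. All 6 libraries of the altered genotypes lay above all WT libraries, and neither comparison with WT was called (edgeR adjusted p = 0.32 for DNMAML and 0.0663 for Notch1f/f), while DESeq2 called both. Uhrf1 was also singled out after its values were seen, and the summed cell cycle genes were lowest in the same WT libraries.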
